A study of Mus musculus with 8 samples.

Results

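The 9 genes C1qa, C1qb, C1qc, C3, C3ar1, C5ar1, Sirpa, Mertk and Gas6 act in complement signalling and in the recognition of synapses and dead cells by phagocytes. They were chosen by name out of 21887 protein-coding genes, and open chromatin was described in each gene's span with 20 kb on each side, called its locus here. The data were 8 lists of ATAC-seq peaks, places where a transposase cut DNA more often than in the local surroundings, 1 list per library. Of the libraries, 4 came from FGR mice and 4 from Ctrl mice, all of them microglia of the hippocampus 3 weeks after birth. FGR is the usual short form of fetal growth restriction, which the labels do not spell out, and the labels do not say how it was brought about. All FGR and Ctrl mice carried the same genotype, Tmem119-tdTomato+/-, 1 copy of a reporter of microglia. The labels do not say how the cells were isolated, nor whether a library came from 1 animal or from several, so that p-values measure the spread between these libraries only. Each comparison asks whether the chromatin of these genes differed between FGR and Ctrl microglia.

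C1q, assembled from the products of C1qa, C1qb and C1qc, starts the classical complement cascade, which cleaves C3. Fragments of C3 tag targets for uptake through complement receptor 3, and the small fragments C3a and C5a signal through the receptors encoded by C3ar1 and C5ar1. In the developing brain, microglia, which make most of the C1q there, are known to remove synapses tagged in this way. Sirpa encodes the receptor for CD47, a signal that restrains uptake, while Mertk encodes a receptor kinase that drives uptake of targets bridged to it by ligands such as the product of Gas6.

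The promoter sequences below are shown because 4 of them lay under a peak in every library and 2 under none. They come from RefSeq, assembly GRCm38.p6, and run from 250 bases before to 50 bases after the annotated start, on the strand of the gene. The table held 7 of the 9 genes, all but C1qa and Sirpa. Capitals mark matches on either strand to AGGAAGT (the PU.1 core), TGANTCA (AP-1), TTGCNNAA (C/EBP) and TATAAA (the TATA box), none of which overlapped another, and GGAANNGAA (PU.1 with IRF) had no match in the 7 promoters. C1qb spans chr4:136886151-136886450, C1qc spans chr4:136892865-136893164, C3ar1 spans chr6:122856108-122856407, C3 spans chr17:57228087-57228386 and C5ar1 spans chr7:16259289-16259588, all on the minus strand. Mertk spans chr2:128698665-128698964 on the plus strand.
C1qb: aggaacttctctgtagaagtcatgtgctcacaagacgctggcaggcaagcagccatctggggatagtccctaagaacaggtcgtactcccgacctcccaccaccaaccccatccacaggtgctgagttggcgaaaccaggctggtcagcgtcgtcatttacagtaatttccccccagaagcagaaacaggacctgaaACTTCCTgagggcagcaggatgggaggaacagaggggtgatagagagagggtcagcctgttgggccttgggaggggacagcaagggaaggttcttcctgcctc
C1qc: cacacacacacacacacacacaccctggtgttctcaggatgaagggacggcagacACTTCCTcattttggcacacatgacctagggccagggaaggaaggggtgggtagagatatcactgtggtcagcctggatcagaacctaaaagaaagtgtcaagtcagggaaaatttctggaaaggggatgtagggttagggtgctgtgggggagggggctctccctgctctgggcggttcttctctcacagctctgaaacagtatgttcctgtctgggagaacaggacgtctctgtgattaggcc
C3ar1: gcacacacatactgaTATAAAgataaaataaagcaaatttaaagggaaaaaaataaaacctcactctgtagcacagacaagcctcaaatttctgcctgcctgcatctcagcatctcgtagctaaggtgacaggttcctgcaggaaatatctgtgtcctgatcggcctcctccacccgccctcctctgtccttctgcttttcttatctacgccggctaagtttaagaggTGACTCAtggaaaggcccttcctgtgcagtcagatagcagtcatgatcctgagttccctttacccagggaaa
Mertk: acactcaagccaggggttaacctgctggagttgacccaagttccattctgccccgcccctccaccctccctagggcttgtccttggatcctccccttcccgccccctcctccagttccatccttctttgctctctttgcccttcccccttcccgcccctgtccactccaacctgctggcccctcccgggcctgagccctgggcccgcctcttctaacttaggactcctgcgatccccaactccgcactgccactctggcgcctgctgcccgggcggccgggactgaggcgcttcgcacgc
C3: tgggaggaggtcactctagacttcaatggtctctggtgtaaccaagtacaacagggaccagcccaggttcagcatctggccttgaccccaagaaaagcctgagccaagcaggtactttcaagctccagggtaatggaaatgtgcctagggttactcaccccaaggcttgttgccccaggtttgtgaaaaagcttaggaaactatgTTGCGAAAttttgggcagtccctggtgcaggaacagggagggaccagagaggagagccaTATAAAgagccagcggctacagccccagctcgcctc
C5ar1: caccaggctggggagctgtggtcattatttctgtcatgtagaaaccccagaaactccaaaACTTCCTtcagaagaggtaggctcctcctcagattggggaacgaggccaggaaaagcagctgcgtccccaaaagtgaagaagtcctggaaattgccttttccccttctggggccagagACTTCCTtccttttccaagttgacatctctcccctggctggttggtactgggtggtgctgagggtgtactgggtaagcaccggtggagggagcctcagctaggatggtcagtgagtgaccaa
The C1qb, C1qc and C5ar1 promoters held the PU.1 core, the letters bound by a transcription factor that microglia need. The match lay at -53 to -47 from the start in C1qb, at -195 to -189 in C1qc, and at -190 to -184 and again at -72 to -66 in C5ar1. That core was in 9.07% of 21263 RefSeq promoters of the same length, against 3 of these 7. C3ar1 had an AP-1 match at -22 to -16, letters found in 6.99% of promoters, and C3 had a C/EBP match at -45 to -38, letters found in 10.2%. TATAAA stood at -235 to -230 in C3ar1 and at 15 to 20 in C3, and was in 12.6% of promoters, while GGAANNGAA was in 7.76%. The Mertk and Gas6 promoters held none of these letters. The Mertk promoter was 66.0% G and C, the C3ar1 promoter 46.0%, and the median over all promoters was 56.3%. A match describes letters in this window and says nothing of whether a factor was bound.

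The lists held 27209, 23327, 29501 and 26246 peaks in FGR libraries 1 to 4 and 16111, 10862, 22705 and 24195 in Ctrl libraries 1 to 4. Ctrl 1 and 2 stood apart, with a median peak width of 566 and 522 bp, against 353 to 358 bp in the FGR libraries and 368 and 386 bp in Ctrl 3 and 4. FGR 1 and 3, and FGR 2 and 4, had 7.57% to 9.14% of summits at identical bases in regions that both had, against 1.76% to 2.14% in the 13 other pairs without Ctrl 1 and 2, so these FGR libraries may not be independent. At the starts of 12 microglia marker genes, 75.0% to 91.7% had a peak in FGR libraries and 41.7% to 83.3% in Ctrl libraries, with 5 of 12 marked in all 8 libraries. None of 7 monocyte and neutrophil markers had a start peak in any library, nor did 6 of 7 markers of border macrophages, 7 of 8 of neurons, 6 of 7 of astrocytes, 7 of 8 of the oligodendrocyte lineage and 4 of 6 of endothelial and mural cells. The highest share in a library was 14.3% for border macrophages, 12.5% for neurons, 14.3% for astrocytes, 12.5% for the oligodendrocyte lineage and 16.7% for endothelial and mural cells. Over all protein-coding genes, 45.9% to 49.8% had a start peak in FGR libraries and 36.0% to 49.6% in Ctrl libraries. What part these differences between libraries had in the results was not tested. In bulk libraries, a change in the mix of cells and a change of chromatin within cells cannot be told apart.

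Peaks of merged regions that reached into the 9 loci numbered 36, 28, 42 and 34 in FGR libraries 1 to 4 and 25, 20, 34 and 28 in Ctrl libraries 1 to 4. A few of these peaks lay just outside the loci, so counts per locus can give slightly smaller totals. Per 10000 peaks of a library these were 13.2, 12, 14.2 and 13 in FGR and 15.5, 18.4, 15.0 and 11.6 in Ctrl. Counts alone put FGR mostly above Ctrl, and division by list length put it mostly below. Merged wherever they shared at least 1 bp, the peaks formed 56 regions out of 52251 in the series, of which 30 overlapped the span of 1 of the 9 genes. Some 19 of the 56 were called in all 8 libraries, which is 33.9%, against 16.9% of all regions and 19.5% of the 42776 regions in protein-coding loci. Another 19 were called in 1 library, again 33.9%, against 45.9% of all regions and 42.5% of those in protein-coding loci. For the strongest peak of each library in each region, 242 in all, the summit pileup could be worked back from the authors' values. These pileups ran from 14 to 106 reads with a median of 44, and are not scaled for the depth of a library.

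**Figure D1:**
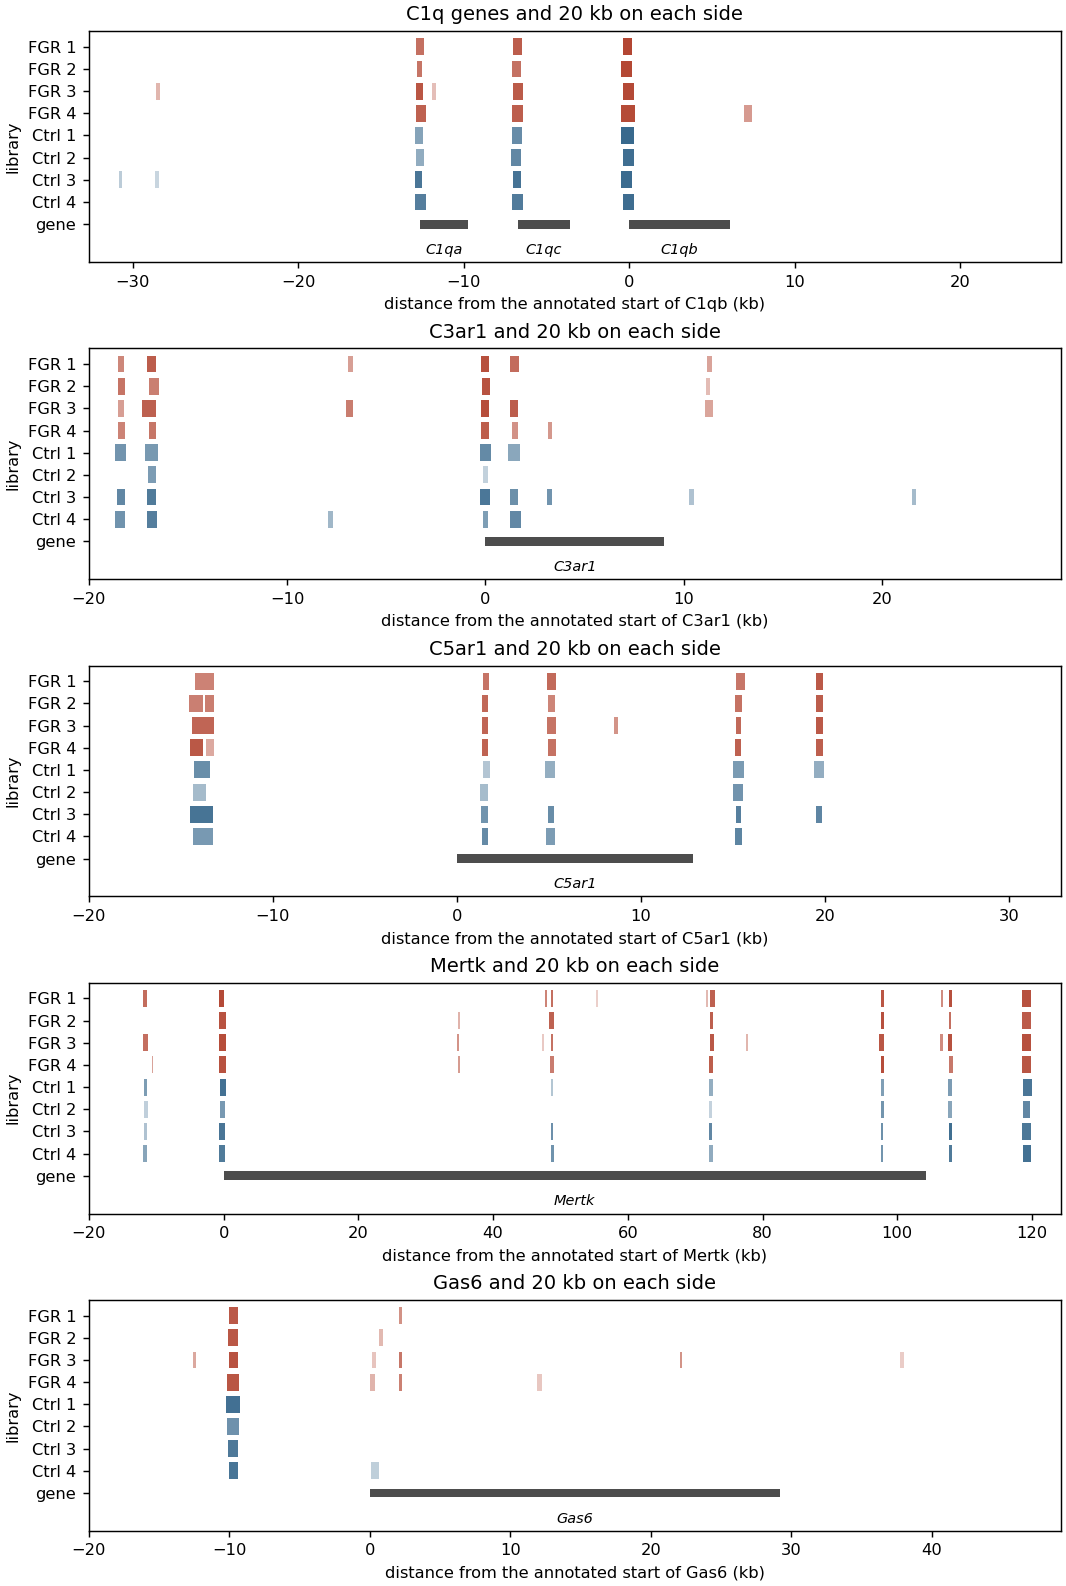
Peaks of the 8 libraries across the C1q genes, C3ar1, C5ar1, Mertk and Gas6. The x axis gives distance in kb from the annotated start of the named gene in the direction of transcription, each line of blocks is a library (red FGR above blue Ctrl), darker blocks have a higher percentile in their own list, and grey bars are gene spans. The C1qb, C1qc, C3ar1 and Mertk starts carried a peak in all 8 libraries, and the C5ar1 start in none, within 1 kb.

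The C1q genes lie side by side on chromosome 4, and each had a peak in all 8 libraries at its start or, for C1qa, at an end. A peak at the C1qb start, chr4:136885835-136886684, was called in every library, with summits between -160 and 8 bp from the start, a stretch that includes the PU.1 core shown above. Ranked by −log10 q among all peaks of the same list, it stood at percentiles 97.9, 96.7, 96.1 and 94.5 in FGR libraries 1 to 4 and at 96.8, 92.1, 94.7 and 92.9 in Ctrl libraries 1 to 4. It was among the strongest peaks of each list, and the FGR and Ctrl values overlapped.

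The C1qc start, chr4:136892591-136893341, was also called in all 8 libraries, at percentiles 81.6, 67.6, 83.4 and 80.6 in FGR and 66.0, 70.1, 87.4 and 80.5 in Ctrl. Its summits lay between -81 and 67 bp from the start, away from the PU.1 core of that promoter. C1qa, whose strand the table does not give, had a peak at its higher end, chr4:136898494-136899148, in all 8 libraries, at percentiles 67.8, 64.4, 86.6 and 79.3 in FGR and 46.0, 38.0, 84.9 and 77.8 in Ctrl. FGR and Ctrl overlapped at both places, and the 2 lowest values at C1qa came from Ctrl 1 and 2. Every other peak in the C1q loci was weak and scattered, in 1 or 2 libraries and at percentile 37.8 or lower.

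C3, the central protein of the cascade, had no peak within 1 kb of its start in any FGR or Ctrl library. A single region lay within the gene, chr17:57219284-57219616, called in FGR 3 and 4 at percentiles 35.7 and 58.7 and in no Ctrl library. The strongest region of the locus, chr17:57247324-57248633, called in all 8 libraries, lay at the starts of Gpr108 and Trip10 rather than of C3. The C3 locus held 2, 1, 3 and 2 peaks in FGR and 1, 1, 2 and 2 in Ctrl.

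Of the anaphylatoxin receptors, C3ar1 had a peak within 1 kb of its start in all 8 libraries and C5ar1 in none, whereas within 2 kb both had one in all 8. With a −log10 q of at least 5, or with equal-length lists, the C3ar1 peak was in 4 FGR and 3 Ctrl libraries. The C3ar1 peak, chr6:122855852-122856438, stood at percentiles 91.1, 88.6, 92.8 and 81.1 in FGR and at 68.2, 6.17, 84.1 and 50.9 in Ctrl. Its level within the list was lowest in Ctrl 2, and Ctrl 3 stood above FGR 4, so the groups overlapped. A second region inside C3ar1, chr6:122854363-122855021, was called in 3 FGR and 3 Ctrl libraries. C5ar1, the receptor for C5a, was marked inside the gene instead. There chr7:16257762-16258263 was called in all 8 libraries, at percentiles 64.9, 74.0, 76.1 and 77.7 in FGR and 16.4, 24.9, 59.1 and 67.5 in Ctrl, and chr7:16254157-16254736 in 4 FGR and 3 Ctrl libraries. No peak of any library overlapped the C5ar1 promoter shown above, with its 2 PU.1 cores. The neighbouring C5ar2, which encodes the other receptor for C5a, had a start peak in all 8 libraries, and a region within it, chr7:16239585-16240125, was called in 4 FGR and 2 Ctrl libraries.

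Sirpa, which restrains uptake, had strong peaks within its span. The region chr2:129592198-129593399 lies within 2 kb of the lower end of the gene, which may be its start, as no strand is given. It stood at percentiles 96.4, 91.8, 95.7 and 95.1 in FGR and at 81.8, 51.3, 91.3 and 83.8 in Ctrl. All FGR values lay above all Ctrl values, the nearest pair being FGR 2 and Ctrl 3. Its summit pileups were 94, 85, 106 and 104 reads in FGR and 79, 46, 89 and 91 reads in Ctrl, and these overlapped. The region chr2:129595647-129596313 stood at 86.4, 85.7, 84.2 and 85.6 in FGR and at 69.2, 41.9, 81.2 and 77.3 in Ctrl. The region chr2:129633177-129633841, just beyond the higher end of the gene, stood at 83.2, 74.5, 87.9 and 84.4 in FGR and at 62.3, 29.6, 62.2 and 68.9 in Ctrl. At both of these places, too, every FGR percentile was above every Ctrl percentile, while the summit pileups overlapped. At chr2:129595647-129596313 they were 79, 79, 88 and 90 reads in FGR and 72, 45, 79 and 88 in Ctrl. At chr2:129633177-129633841 they were 48, 46, 60 and 60 reads in FGR and 47, 25, 44 and 51 in Ctrl. A further region called in all 8 libraries, chr2:129585728-129586686, stood at 82.8 to 96.8 in FGR and at 89.7 to 99.4 in Ctrl and overlapped. Within 1 kb of either end of Sirpa a peak was called in FGR 1 and 3 only, because in the other 6 libraries the peak beyond the higher end began outside that distance.

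Mertk, the uptake receptor, had the longest gene and the most regions, 15, of which 5 were called in all 8 libraries. Its start region, chr2:128698176-128699333, stood at percentiles 95.4, 89.4, 93.4 and 89.7 in FGR and at 89.5, 54.6, 85.6 and 81.0 in Ctrl. FGR 2 fell just below Ctrl 1, so the groups overlapped, and they did not overlap without Ctrl 1 and 2. Within the gene, chr2:128796240-128796994 stood at 86.6, 90.7, 85.8 and 92.8 in FGR and at 50.04, 58.1, 62.0 and 58.4 in Ctrl. This was a wide gap, with each FGR library above each Ctrl library. The authors' fold over local background there was 5.58, 6.30, 5.19 and 6.18 in FGR and 3.48, 4.36, 4.09 and 3.60 in Ctrl. Summit pileups, not scaled for depth, were 46, 51, 50 and 61 reads in FGR and 36, 25, 38 and 38 reads in Ctrl. The summit fell within a few bases in the FGR libraries, at bases 128796742 to 128796744. In Ctrl libraries 1 to 4 it fell at bases 128796606, 128796636, 128796684 and 128796738, the last close to the FGR summits. Summits of Ctrl 1 and 2 were offset throughout the series. Over all regions shared with an FGR library, their median summit distance was between 138 and 140 bp, depending on the pair. For Ctrl 3 and 4 it was between 36 and 44 bp. Whether the offsets in this Mertk region differ from these general ones was not tested. Another region within Mertk, chr2:128770929-128771842, stood at 79.2, 80.3, 84.9 and 81.4 in FGR and at 36.9, 5.01, 70.1 and 39.0 in Ctrl, again with no overlap. Its fold over local background did overlap, at 5.09, 6.11, 5.24 and 5.67 in FGR and 3.63, 3.26, 5.24 and 3.31 in Ctrl. A further region there, chr2:128733504-128733995, was called in FGR 2, 3 and 4, at percentiles 20.02, 42.8 and 36.7, and in no Ctrl library.

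Gas6, the ligand, had little open chromatin within the gene. The region called in all 8 libraries, chr8:13503782-13504750, lay upstream and stood at percentiles 84.4, 85.2, 89.3 and 87.0 in FGR and 90.1, 61.1, 82.5 and 86.3 in Ctrl, with overlap. Within 1 kb of the start, peaks were called in FGR 2, 3 and 4 and in Ctrl 4, all of them weak, at percentiles 16.2, 7.98 and 19.4 in FGR and 7.75 in Ctrl. The region chr8:13492238-13492495 was called in FGR 1, 3 and 4, at percentiles 44.0, 63.0 and 55.9, and in no Ctrl library. It lies in Gas6 and in the overlapping Tmem255b, so it cannot be given to 1 of the 2. All 6 regions of this locus called in a single group were called in FGR, against 74.0% of all regions called in a single group, and 5 of the 6 were called in 1 library only.

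Taking starts together, 5 of the 9 genes had a start peak in all 8 libraries, with either end counted for C1qa and Sirpa, against 33.0% of the 21887 genes. The 5 were C1qa, C1qb, C1qc, C3ar1 and Mertk. Within 2 kb, C5ar1 and Sirpa joined, which made 7, against 34.1% of genes, and with a −log10 q of at least 5 or equal-length lists C3ar1 dropped out, which left 4, against 25.0% and 22.3% of genes. No gene of the 9 had a start peak in every FGR library and no Ctrl library, a pattern found in 0.187% of genes, and none had the opposite, found in 0.0228%. Among the 4395 genes without a strand in the table, C1qa and Sirpa included, either end counted.

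The number of peaks per locus was then compared between FGR and Ctrl. C1qa had 3, 3, 5 and 4 peaks in FGR and 3, 3, 5 and 3 in Ctrl, and C1qb and C1qc, whose loci share their peaks, had 3, 3, 4 and 4 in FGR and 3, 3, 3 and 3 in Ctrl. C3ar1 had 6, 4, 6 and 5 in FGR and 4, 2, 7 and 5 in Ctrl, and C5ar1 had 5, 6, 6 and 6 in FGR and 5, 3, 5 and 4 in Ctrl. In each of these loci FGR and Ctrl overlapped or tied.
Sirpa had 6, 5, 5 and 4 in FGR and 4, 4, 7 and 4 in Ctrl. Mertk had 11, 7, 11 and 8 in FGR and 7, 6, 7 and 7 in Ctrl, a mean of 9.25 in FGR and 6.75 in Ctrl. Gas6 had 2, 2, 6 and 4 in FGR and 1, 1, 1 and 2 in Ctrl, a mean of 3.50 in FGR and 1.25 in Ctrl. Every FGR count was at or above every Ctrl count, with at least 1 tie, at C1qb, C1qc, C5ar1, Mertk and Gas6. That is 5 of the 8 loci tested, C1qb and C1qc sharing their peaks, against 32.0% of all tested loci. Gas6 reached the mean of 2 peaks required for testing only through its FGR libraries, so its place among the 5 is a description only. None of the 8 loci tested had every FGR count strictly above every Ctrl count, which 4.12% of tested loci had.

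**Figure D2:**
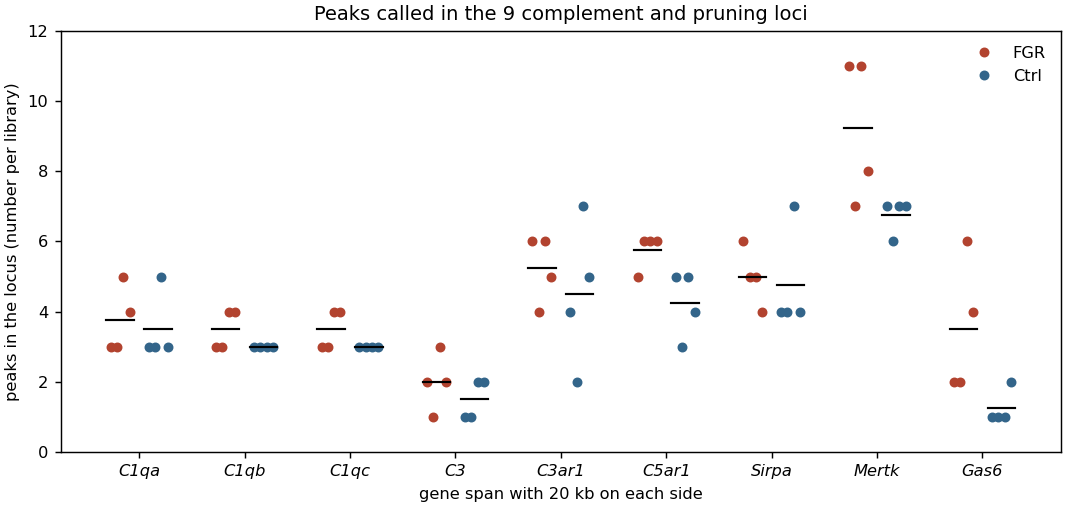
Peaks called in each locus, counting 20 kb beyond either end of the gene. Each point is a library, red FGR left of blue Ctrl, and black lines are group means, which for Gas6 were 3.50 in FGR and 1.25 in Ctrl and for Mertk 9.25 in FGR and 6.75 in Ctrl. Values in the loci of C1qa, C1qb and C1qc are largely the same peaks counted 3 times.

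With limma on log2 of peaks, 0.5 added, per 10000 peaks of a library, 8 of the 9 loci passed the filter of a mean of at least 2 peaks, and C3, at 1.75, did not. Fitted without the filter, C3 was at -0.28 on the log2 scale (limma, adjusted p = 0.586), where the median of all loci was -0.40. None of the 8 was called at a Benjamini-Hochberg adjusted p under 0.05, against 0.0124% of all 8037 loci. Their median log2 difference, FGR minus Ctrl, was -0.35, and the median of all 8037 loci was -0.28. At an unadjusted p under 0.05, limma had 209 loci higher and 1256 lower in FGR. The Gas6 locus was 0.52 higher on the log2 scale in FGR than in Ctrl (SE 0.34), limma adjusted p = 0.350, and adjusted p = 0.332 with FGR 1 and 3, FGR 2 and 4 and the same Ctrl numbers averaged. Relative to the median of all loci this was 0.80. Gas6 passed the filter through its FGR libraries, with a mean of 1.25 peaks in Ctrl, so this difference is a description only, and without any filter it was 0.93 above the median of that fit (limma, adjusted p = 0.214). Gas6 fell under the filter and had no fit without FGR 3, with a −log10 q of at least 5, with equal-length lists and with 5 kb on each side. In the 17 settings that fitted it, with the weak FGR peaks kept, it was above the median by 0.41 to 1.38, with limma adjusted p between 0.214 and 0.701.
For the other 7 the log2 difference ran from -0.50 at C1qa (SE 0.25, limma adjusted p = 0.276) and Sirpa (SE 0.24, limma adjusted p = 0.260) to -0.17 at C5ar1 (SE 0.23, limma adjusted p = 0.642), and without division by list length the sign of all 7 turned, to between 0.091 and 0.42. Mertk was at -0.18 (SE 0.20, limma adjusted p = 0.575), which is 0.10 above the median of all loci, and C3ar1 was at -0.30 (SE 0.22, limma adjusted p = 0.408), which is -0.01 from it. C1qb and C1qc were at -0.41 (SE 0.26, limma adjusted p = 0.341). Dividing by list length moved the median of all loci to -0.28, against 0.31 without it, so these values are read relative to that median. These counts are small whole numbers, and a p above the threshold does not show that FGR and Ctrl were alike.

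**Figure D3:**
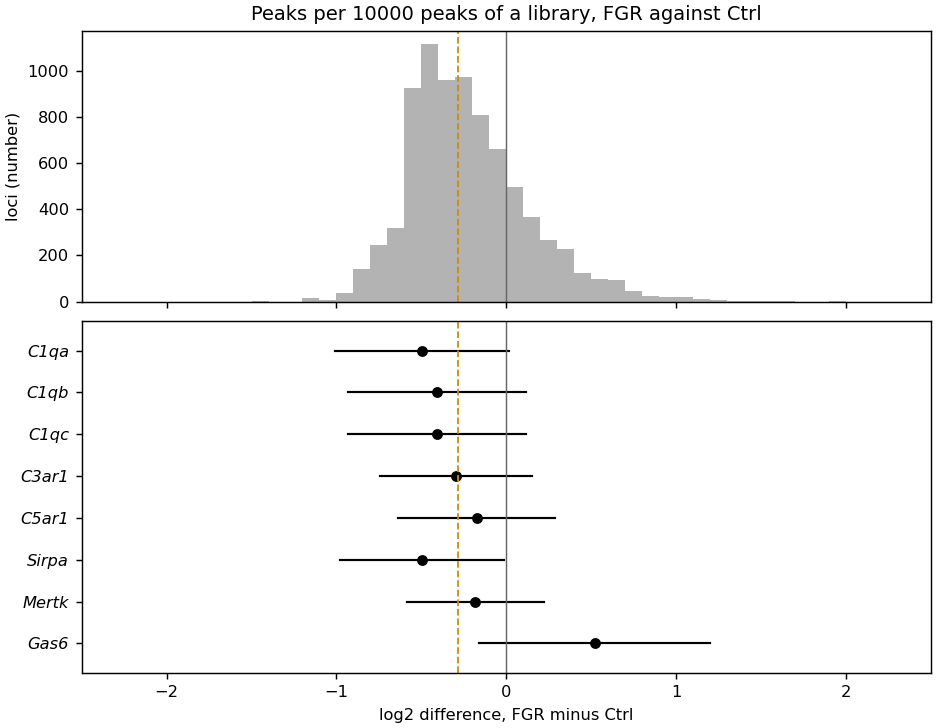
Log2 difference in peaks per 10000 peaks, FGR minus Ctrl, for all 8037 loci (histogram, upper panel) and for the 8 loci of complement and pruning genes that passed the filter (lower panel). Points are limma estimates, bars their 95% intervals, the solid line marks 0 and the dashed line the median of all loci, -0.28, and Gas6 alone among the 8 has an estimate above 0, whereas all 8 do without division by list length.

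Region by region, none of the 56 was called in every FGR library and no Ctrl library, a pattern of 0.869% of all regions, and none had the opposite pattern, that of 0.0268%. Regions called in FGR libraries alone numbered 20 of 56, which is 35.7%, against 42.3% of all regions and 39.1% of those in protein-coding loci. Those called in Ctrl libraries alone numbered 5, which is 8.93%, against 14.9% of all regions and 14.3% of those in protein-coding loci. Among the 20 in FGR alone, 14 were called in a single library, 7 of them in FGR 3, the library with the longest list. Both regions called in FGR 1 and 3 and nowhere else, 1 in the C3ar1 locus and 1 in the Mertk locus, thus rest on a pair with many identical summits.
In 3 regions the FGR libraries led by 3, against 4.33% of all regions and 4.35% of those in protein-coding loci, and no region had Ctrl leading by 3, against 0.216%. The 3 were the Mertk and Gas6 regions given above and chr6:122844689-122845064, which lies inside Foxj2 in the C3ar1 locus and was called in FGR 1, 2 and 3 at percentiles 31.4, 13.6 and 30.3. Fisher's exact test of 3 against 0 libraries gives p = 0.143 (two-sided), and 4 against 0 gives 0.0286, the smallest p this design allows. Across the 43395 regions tested, the smallest Benjamini-Hochberg adjusted p was 1, so that no region could pass. The share of these 3 regions is near that of all regions and is no result about these genes.

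Among the 19 regions called in all 8 libraries, the percentile of every FGR library was above that of every Ctrl library in 5, against 9.9% of all such regions, and below in none, against 0.632%. They were 2 in Mertk and 3 at Sirpa, described above. Of these 5, 4 lay away from gene starts, out of 9 such regions in these loci, against 18.2% of all shared regions away from starts, where 0.285% had the opposite and these loci none. At regions counted as starts, 1 of 10 had it, against 6.73%. This was the region beyond the higher end of Sirpa. It counts as a start only because either end does where no strand is given, and whether it is one is not known. The reverse holds for chr2:129592198-129593399, 1 of the 4 away from starts. It lies within 2 kb of the lower end of Sirpa and counts as away only by the 1 kb window. Whether it is a start is not known either, so the comparison away from starts depends on that window. Counted by rank from the top of the list in place of the percentile, 4 of the 19 had every FGR library ahead, against 4.05% of all such regions (3 of the 9 away from starts, against 8.28%), and chr2:129595647-129596313 in Sirpa was no longer among them. By that rank none had every FGR library behind, against 6.32%. Without Ctrl 1 and 2, 6 of the 19 had it, against 12.9%, and the start of Mertk joined. Away from starts this was again 4 of 9, against 21.2%, and none of the 19 had all FGR libraries below Ctrl 3 and 4, against 7.92%. Over all 8856 regions called in all 8 libraries the FGR median percentile was above the Ctrl median by 4.89 (median), so the standing of shared regions was higher in FGR lists in general. Lists differ in length, so a percentile says how a peak stands in its own list and not that its signal changed.

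**Figure D4:**
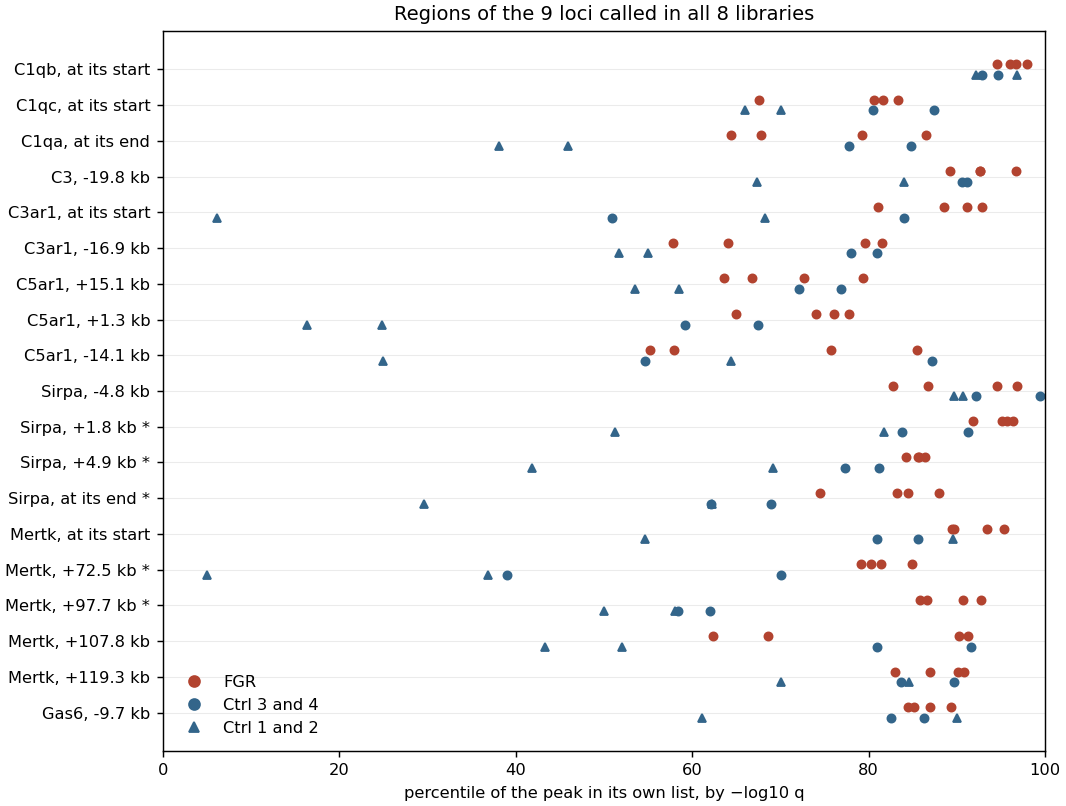
Percentile of the peak in its own list, by −log10 q, for the 19 regions of these loci called in all 8 libraries. Each point is a library, red FGR above blue Ctrl within a line, triangles are Ctrl 1 and 2, distances are in kb from the annotated start (for Sirpa from its lower end), and asterisks mark the 5 regions with every FGR value above every Ctrl value. In 14 of the 19 lines the lowest value came from Ctrl 2.

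Other genes of the same pathways showed few differences. Of 25 further complement genes, 8 loci passed the filter and limma called none, with a median log2 difference of -0.32, against -0.28 over all loci. Start peaks were called in all 8 libraries at 2 of the 25, C5ar2 and Cr1l, and in no library at 13. Itgam, which encodes a chain of complement receptor 3, had a start peak in 3 FGR and no Ctrl libraries. It was the only 1 of the 25 with a start difference of 3 or more, which is why it is named. Fisher's exact test of 3 against 0 libraries gives p = 0.143 (two-sided), and the share of all genes with such a lead was not counted. The Itgam locus held 2, 5, 6 and 7 peaks in FGR and 2, 0, 4 and 3 in Ctrl, and FGR 1 lay below Ctrl 3 and 4. This was 0.68 higher on the log2 scale in FGR (SE 0.34, limma adjusted p = 0.273). Itgb2, the other chain of that receptor, had a strongest peak with a median percentile of 94.5 and a start peak in 4 FGR and 3 Ctrl libraries. The complement genes Cfb, Cfd, C2 and Masp2 had strong peaks in their loci, at median percentiles of 83.8 to 94.8, and no start peak in any library. Cfb and C2, both on chromosome 17, had the same highest percentile in FGR 2 and 4 and in every Ctrl library, so they are not separate observations there.

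Of 25 further engulfment genes, 15 loci were tested, with a median log2 difference of -0.16, and limma called 1. Elmo1, which helps to turn signals at the cell surface into the engulfing movement, had 16, 13, 18 and 18 peaks in FGR and 4, 1, 8 and 9 in Ctrl. Its log2 difference was 1.19 (SE 0.22, limma adjusted p = 0.0232), with every FGR library above every Ctrl library, and it was the single call among all 8037 loci. Across the alternatives its log2 difference ran from 0.71 to 1.78 and the limma adjusted p from 2.6e-07 to 0.423. The call was lost without division by list length, with a −log10 q of at least 5, with equal-length lists, without FGR 2, FGR 3, FGR 4 or Ctrl 1, without Ctrl 1 and 2 together, within replicates 3 and 4 alone, and with the pairs of libraries averaged. Itgb5, a chain of an integrin that binds dead cells through bridging proteins, had 11, 11, 13 and 13 peaks in FGR and 5, 1, 9 and 9 in Ctrl, which is 0.67 higher on the log2 scale in FGR (SE 0.23; limma, adjusted p = 0.189). FGR and Ctrl did not overlap at Itgb5 either, yet it missed the threshold. Every FGR count was above every Ctrl count at 3 of the 15 tested loci of this list, Elmo1, Itgb5 and Dock2, against 4.12% of all tested loci, and also at Cd47, which was under the filter, Dock2 and Cd47 being named after their values were seen. Start peaks were called in all 8 libraries at 11 of the 25, among them Pros1, another ligand of the Mertk family, Tyrobp, a signalling adaptor of microglial receptors, Itgav, Abca1 and Syk.

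Other loci were compared with the summed counts of the 9 loci on the log2 scale, after division by list length. Among those that tracked the sum closely were Rnf167 (Pearson r 0.969) and Med1 (Pearson r 0.966), over 8 libraries and 8018 loci compared. These r values are not correlations of plain peak counts. The values share the library and its list length, and r is given as a description.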

How the data were processed

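Accessible chromatin of hippocampal microglia was profiled in 4 FGR and 4 Ctrl libraries, prepared per the labels with the Vazyme Hyperactive kit (TD711), and each has a peak list of its own. Tools named in the submitters' processing notes are MACS2 (2.2.7.1), Bowtie2 (2.4.5), DiffBind (3.12.0), Trim Galore (0.6.5) and SAMtools (1.3.1), with build mm10 and no settings. How reads were shifted and duplicates treated is not stated there, and read totals were not used here. The authors deposited for each peak a display score, which was not used, a fold (ratio) over local background, and −log10 p and −log10 q values, the smallest −log10 q being 1.31. A summit pileup was worked back from the deposited fold and −log10 p as a whole number under a Poisson tail, within 0.001 on the −log10 scale, and covers counting error only.

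Gene spans and promoter sequences came from RefSeq tables of GRCm38.p6. A start peak lies within 1 kb of an annotated start, or of either end where no strand is given. Loci averaging 2 or more peaks per library were compared with limma 3.58.1 (R 4.3.3, trend), regions with Fisher's exact test, and p-values were adjusted by Benjamini-Hochberg with a threshold of 0.05. Python 3.11.15 was used, and the code was tested on simulated data. The members and the lists of other genes were chosen with earlier results of these data known. Other genes were named where limma called the locus, where start peaks differed by 3 or 4 libraries, or among the 6 of a list with the strongest peaks. C5ar2, Dock2 and Cd47 were named after their values were seen, as were the genes next to or overlapping a described region. The loci most like the 9 were the 3 with the highest Pearson correlation, of which 1 is not reported here. The main fit did not pair libraries by replicate number, and whether the numbers stand for pairs is not known. Alternatives covered scaling, the added count, the filter, a −log10 q of at least 5, equal-length lists, locus and start windows, and libraries left out.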

Additional observations from a re-analysis of the deposited data

Results flagged for a closer look

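In a group of 4 libraries, a value was singled out when its gap to the nearest of the others exceeded a fixed share of the group's range. Chance gives this in about 1 in 20 groups of continuous values, a rate that does not hold for small whole-number counts with ties. Of 58 groups of locus counts and region percentiles examined, 5 met this, all of them counts of peaks per locus, where the other 3 libraries of the group tied. FGR 1 had 5 peaks at C5ar1, against 6 in each of the other FGR libraries. Ctrl 3 had 5 peaks at C1qa, against 3 in each of the other Ctrl libraries, and 7 at Sirpa, against 4. Ctrl 2 had 6 peaks at Mertk, against 7 in each of the other Ctrl libraries. Ctrl 4 had 2 peaks at Gas6, against 1 in each of the other Ctrl libraries.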

How the results depend on the processing

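None of the 8 loci tested was called by limma under any alternative that fitted it (Gas6 had no fit in 4 and C1qb none with 5 kb on each side), while the count over all loci moved from 1 to 11 without division by list length, 57 with 1 added in place of 0.5, 61 without a filter, 20 with equal-length lists, 3 with 5 kb on each side, and 0 without Ctrl 1 and 2, with replicates 3 and 4 alone, or with pairs averaged. With the replicate block it was 141 (54 higher and 87 lower in FGR), none of them a locus of the 9 genes. Deviations of same-numbered libraries correlated at -0.02 to 0.10, which gives no sign of pairing by number but cannot exclude it. Leaving out 1 library gave 0 to 15. The log2 difference turned without division by list length to 0.091 at C1qa, 0.093 at Sirpa, 0.18 at C1qb and C1qc, 0.29 at C3ar1, 0.42 at C5ar1 and 0.41 at Mertk. It turned to 0.21 at C5ar1 with a −log10 q of at least 5, to 0.45 at C5ar1 and 0.16 at Mertk with equal-length lists, to 0.0054 at C1qb and C1qc, 0.15 at C5ar1 and 0.18 at Mertk without Ctrl 1 and 2, and to 0.11 at C1qb and C1qc, 0.14 at C5ar1 and 0.15 at Mertk with replicates 3 and 4 alone. Regions in all FGR and no Ctrl libraries numbered 454, but 128 with equal-length lists and 1623 with replicates 3 and 4 alone, and 461 to 884 leaving out 1 library, which loosens the requirement. Regions in all Ctrl and no FGR libraries numbered 14, but 8 with a −log10 q of at least 5, 90 with equal-length lists, 394 without Ctrl 1 and 2 and 660 with replicates 3 and 4 alone, and 15 to 79 leaving out 1 library. In the 9 loci the first kind numbered 0, but 3 of 52 with replicates 3 and 4 alone, at C3, Mertk and Gas6. Over all regions, that setting gave 1623 of 44788. Leaving out 1 library gave 0 to 1 in the 9 loci. Without FGR 1 it was the Mertk region, 1 of 53, against 724 of 47738 over all regions. Without FGR 2 it was the Gas6 region, 1 of 55, against 801 of 49659. Without FGR 4 it was the Foxj2 region, 1 of 53, against 638 of 48589. Shared regions with every FGR percentile above every Ctrl one numbered 5 of 19 (9.9% of all shared regions). They were 3 of 14 with a −log10 q of at least 5 (9.26%) and 3 of 15 with equal-length lists (5.07%). With replicates 3 and 4 alone they were 10 of 23 (27.6%), where 1 more had every FGR one below. Leaving out 1 library gave 5 to 7 of 19, or 5 of 22 without Ctrl 2, while the share of all shared regions rose to between 11.2% and 19.1%. These recounts were chosen after seeing the data. Genes whose start had a peak in every FGR and no Ctrl library numbered 41, but 7 with equal-length lists and 173 with replicates 3 and 4 alone, and 43 to 118 leaving out 1 library. The reverse numbered 5, but 2 with a −log10 q of at least 5, 74 with equal-length lists, 8 within 500 bp, 70 without Ctrl 1 and 2 and 154 with replicates 3 and 4 alone, and 5 to 18 leaving out 1 library. Fewer libraries make such counts easier to reach, and the causes of the other moves were not tested. Depth is known only through list lengths and pileups, so a peak absent from a list may be one that was not detectable there.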
